A study of Homo sapiens with 6 samples.

Results

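The knockouts described here are those of 7 genes of the 53BP1, shieldin and break-site ubiquitin pathway, which are H2afx, Mdc1, Rnf8, Rnf168, Trp53bp1, Shld2 and Mad2l2. They are 7 of the 459 genes targeted in a screen that paired guide RNAs against DNA repair genes, and were chosen by gene symbol, as a guide of the gene at either position of a construct. Each gene had 4 guides, of which guides 1 and 2 were read at position 1 and guides 3 and 4 at position 2, so the set holds 28 of 1826 gene guides. A guide of a member was present in 25600 of the 863546 constructs with reads. Of these, 834 carried a non-targeting guide beside the member's guide, 166 joined guides of different members, 27 carried both guides against the same member, and 55 joined a member to Nhej1. Nhej1 encodes XLF, a ligation factor of non-homologous end joining, and was set apart as a reference partner.

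The cells were eHAP iCas9 clone 6, a p53 null human line derived from haploid HAP1 cells in which doxycycline induces Cas9. They received the guide library at a multiplicity of infection of 0.15, were selected in puromycin, and were given doxycycline for 7 days. The 6 libraries of guide amplicons from genomic DNA form 3 groups of 2, all p53 null and all of this 1 clone. The groups were day 0, day 14 without irradiation, at 12 population doublings, and day 15 with 0.6 Gy of X-rays 24 hours after each split, at 10 population doublings. Cells were split every 3 days and pooled at each passage, and the labels do not say that replicates came from separate cultures, so p-values measure the spread between these libraries, which may be technical. Irradiated and unirradiated cells also differed in days and in doublings, and these cannot be told apart from the dose. The guide counts do not show whether the protein was lost.

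A double-strand break is marked by phosphorylation of the histone variant H2AX, which recruits the adaptor MDC1. MDC1 brings the ubiquitin ligase RNF8, and a second ligase, RNF168, ubiquitinates histone H2A around the break. 53BP1 binds this mark and, through RIF1 and the shieldin complex, limits resection of the broken ends and favours end joining over homologous recombination. SHLD2 is the subunit of shieldin that binds single-stranded DNA, and MAD2L2, also called REV7, is shared by shieldin and by DNA polymerase zeta.

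The tables name the genes with mouse symbols, and each of the 7 matched a human gene of the RefSeq annotation of GRCh38. H2AX lies on chromosome 11 (chr11:119093874-119095465), MDC1 and RNF8 on chromosome 6 (chr6:30699807-30717281 and chr6:37353983-37394734), and RNF168 on chromosome 3 (chr3:196468783-196503768). TP53BP1 lies on chromosome 15 (chr15:43403061-43510640), SHLD2 on chromosome 10 (chr10:87094473-87191465) and MAD2L2 on chromosome 1 (chr1:11674480-11691830). NHEJ1 lies on chromosome 2 (chr2:219069357-219160815). The guides' sequences and target sites were not used here.

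The libraries held 61185707 to 86587125 reads, and constructs with a member guide took 2.87% to 2.99% of them. Day 14 replicate 1 and irradiated replicate 2 were incomplete. No reads were found for 54.7% and 49.6% of the member constructs in these, against 2.0% to 8.7% in the other libraries. Over the 25600 member constructs, log2 counts of these 2 libraries correlated with each other (r = 0.665) more than either did with the other replicate of its group (r = 0.401 and 0.424), and 73.6% of the constructs at 0 in day 14 replicate 1 were also at 0 in irradiated replicate 2. The guides of H2afx were scarce already at day 0, and none of the 6 libraries precedes day 0. Their day 0 total of 629 CPM (read counts scaled to a common size) ranked 2 of 459 from the lowest. The median over all genes was 2080, and the total of Mdc1, 3520, ranked 440. For gene totals this size was the sum of all gene totals, in which a construct joining different genes counts for each of them. For guides within a position and for pairs, each construct counts once. The CPM of gene totals are therefore on another scale than those of guides and pairs. A construct with an H2afx guide had a median of 20 reads in either day 0 library, and 81.6% and 79.1% of these constructs had no reads in the incomplete libraries.

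No member was called in the single knockouts, in which a guide of the gene was paired with a non-targeting guide. The reads were set against those of constructs that held 2 non-targeting guides, a reference shared by all members. No reads were found for 69.7% and 66.6% of these in day 14 replicate 1 and irradiated replicate 2, against 3.1% to 16.1% elsewhere. edgeR's quasi-likelihood test called 0 of 7 members at an adjusted p under 0.05 in each comparison (day 14 against day 0, irradiated against day 0, irradiated against day 14), as it called 0 of all 459 genes, or 0%. At an unadjusted p under 0.05 it found 0 members in each comparison, against 18, 12 and 13 of all genes (3.92%, 2.61% and 2.83%), and DESeq2 also called 0 members and 0 genes. The lowest log2 changes at day 14 were those of H2afx, Mad2l2 and Shld2. Both day 14 libraries lay below both day 0 libraries for 5 of the 7 members, as for 56 of all 459 genes (12.2%), and above them for Trp53bp1. In either direction the groups did not overlap for 6 of 7 members, against 30.5% of all genes. For irradiated against day 0 this held for 5 members, 4 of them lower, against 34.4% and 19.6% of all genes.

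For H2afx, the histone that carries the break mark, single knockouts gave 4.84 and 4.41 reads per 100 non-targeting pair reads at day 0. At day 14 they gave 3.39 and 3.65, and after irradiation 3.37 and 3.5. Both later groups lay below day 0 without overlap, and beside each other they overlapped. The log2 change was -0.39 ± 0.23 (SE) at day 14 and -0.43 ± 0.23 after irradiation (edgeR, adjusted p = 0.817 and 0.974), and each ranked 7 of 459 from the lowest. The change was larger through guides 3 and 4 alone (-0.61 and -0.58) than through guides 1 and 2 alone (-0.14 and -0.26). The difference between the positions was not tested, and only 16 and 18 of the 108 H2afx constructs of this kind had reads in the incomplete libraries.

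Mdc1, the adaptor that reads the mark, gave 29.4 and 27.9 reads per 100 at day 0, 26.3 and 27.8 at day 14, and 28 and 23.6 after irradiation. The lowest library was irradiated replicate 2, an incomplete one. The log2 changes against day 0 were -0.08 ± 0.16 and -0.15 ± 0.16 (SE), the latter -0.03 without that library. After irradiation guides 1 and 2 alone gave -0.01 and guides 3 and 4 alone -0.45. Its intervals at the 95% level, -0.42 to 0.25 and -0.49 to 0.18, were the narrowest of the 7 genes.

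The ligase Rnf8 gave 17.6 and 16.5 reads per 100 at day 0, 18.5 and 17.0 at day 14, and 15.3 and 13.0 after irradiation. It was the member with the lowest value after irradiation relative to day 14 (log2 change -0.33 ± 0.18, SE; edgeR, adjusted p = 0.965), and the only member whose groups did not overlap there, against 25.1% of all genes. Guides 3 and 4 alone gave -0.67 and guides 1 and 2 alone 0.18, so the sign depended on the guides. The value was -0.27 and -0.25 when libraries were scaled by TMM (a trimmed mean normalisation) or by total reads, and -0.15 without the incomplete libraries.

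Rnf168, the second ligase, gave 13.6 and 14.2 reads per 100 at day 0, 13.4 and 12.6 at day 14, and 12.5 and 15.3 after irradiation. The irradiated replicates lay on either side of all others. Its log2 changes against day 0 were -0.09 ± 0.20 and 0.00 ± 0.20 (SE). At day 14 the guide positions differed more here than in any other member, as guides 3 and 4 alone gave -1.54 and guides 1 and 2 alone 0.03. After irradiation relative to day 14 they gave 1.04 and 0.03. The difference was not tested, and only 38 and 42 of the 120 single-knockout constructs of Rnf168 had reads in the incomplete libraries. Over all partners, guides 3 and 4 alone gave -0.12 at day 14 and 0.05 after irradiation relative to day 14.

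Trp53bp1, the reader of the ubiquitin mark, was the one member with higher values at both later times. It gave 14.1 and 16.0 reads per 100 at day 0, 18.6 and 16.1 at day 14, and 16.2 and 17.3 after irradiation. The lower irradiated and day 14 values exceeded the higher day 0 value by little, and the log2 changes were 0.20 ± 0.18 and 0.16 ± 0.18 (SE; edgeR, adjusted p = 0.817 and 0.974). They were 0.11 and 0.06 without day 0 replicate 1. Through guides 1 and 2 alone they were 0.12 and -0.05, so the irradiated sign turned, and through guides 3 and 4 alone 0.32 and 0.41.

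The shieldin subunit Shld2 gave 18.8 and 17.1 reads per 100 at day 0, 14.1 and 16.1 at day 14, and 16.8 and 13.6 after irradiation. Mad2l2 gave 25.1 and 22.3 at day 0, 16.5 and 21.4 at day 14, and 20.2 and 16.7 after irradiation. In both genes each later library lay below both day 0 libraries, and the lowest value of each later group came from the incomplete library. The log2 changes of Shld2 were -0.25 ± 0.19 and -0.24 ± 0.19 (SE), with -0.04 and 0.06 through guides 1 and 2 alone and -0.37 and -0.42 through guides 3 and 4 alone. Those of Mad2l2 were -0.32 ± 0.18 and -0.36 ± 0.18 (SE), and the latter had the smallest p of any member (edgeR, adjusted p = 0.974). Without the incomplete libraries Shld2 was at -0.16 and -0.10, and Mad2l2 at -0.15 and -0.23.

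**Figure D1:**
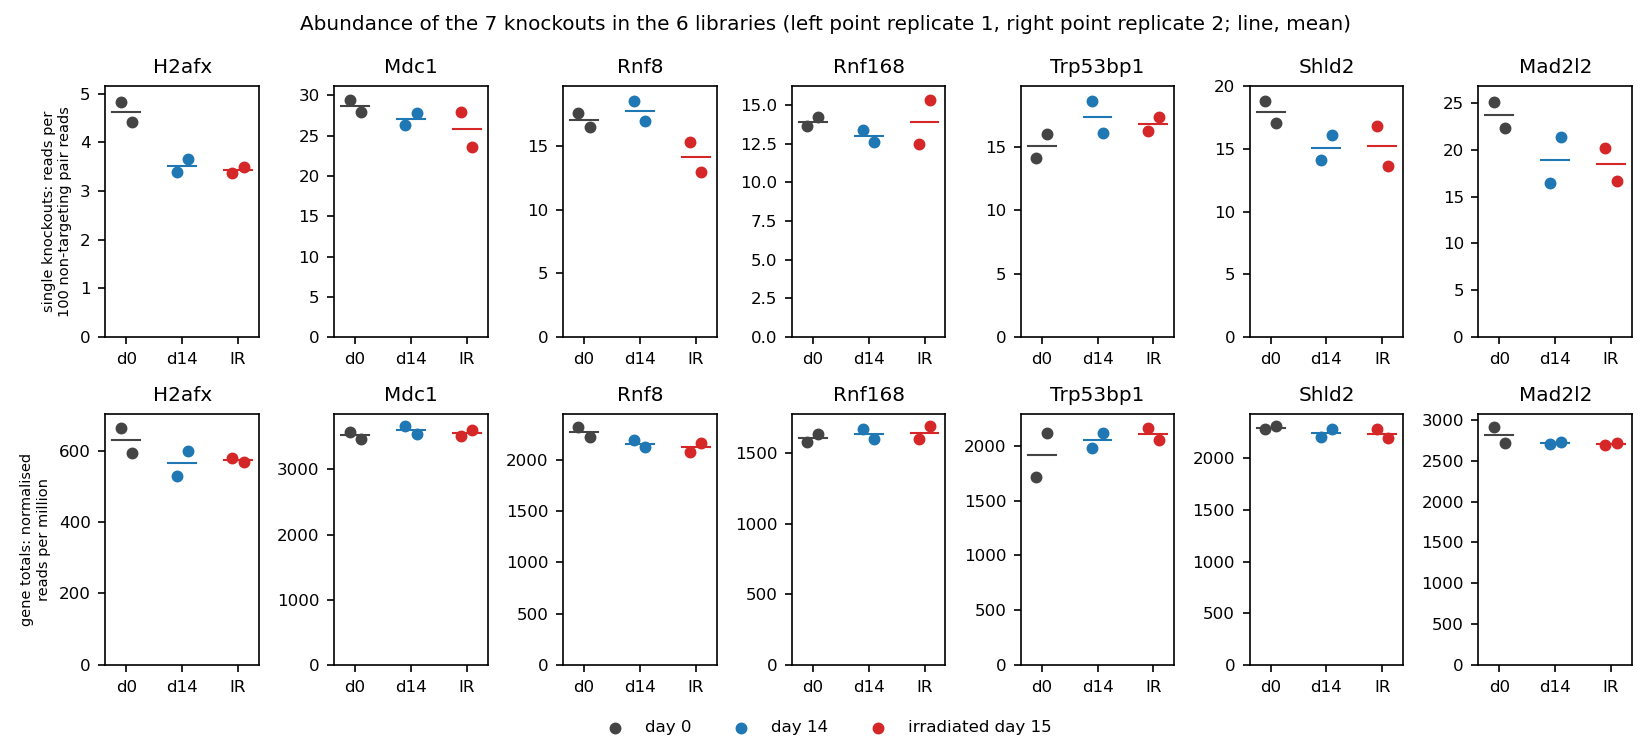
Each panel plots one gene, with the 6 libraries on the x axis (d0, day 0; d14, day 14; IR, irradiated day 15; left point replicate 1, right point replicate 2; line, mean of 2) and abundance on the y axis from 0, as reads per 100 reads of non-targeting pairs (top) or CPM over all partners (bottom). H2afx, Shld2 and Mad2l2 lie lower at both later times in the top row, and in the bottom row the largest gap within a group is that of Trp53bp1 at day 0, 1710 against 2120.

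Read over all partners, which uses every construct of a gene, the 7 knockouts stayed within narrow limits. Gene totals were called for 0 of 7 members and 0 of 459 genes in each comparison (edgeR, 0%), with 0 members and 18, 18 and 12 genes at an unadjusted p under 0.05. DESeq2 called 0 members and 2, 2 and 1 of all genes. The median log2 change of the members was -0.03, -0.04 and 0.00 in the 3 comparisons, beside 0.01, 0.00 and 0.00 over all genes. Across members and comparisons the 95% intervals lay between -0.38 and 0.40, so no interval reached a change of 1 log2 unit. The groups did not overlap for 2, 4 and 0 members, against 40.3%, 38.8% and 34.2% of all genes, and each of these members was lower, against 20.3%, 18.3% and 17.2% of all genes.

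Mdc1 totals were 3580 and 3460 CPM at day 0, 3660 and 3540 at day 14, and 3510 and 3610 after irradiation, with log2 changes of 0.03 ± 0.04 and 0.02 ± 0.04 (SE) against day 0. Rnf8 totals were 2320 and 2220, then 2190 and 2120, then 2080 and 2160. All Rnf8 libraries after day 0 lay below both day 0 libraries, by -0.07 ± 0.05 and -0.10 ± 0.05 (SE) on the log2 scale (edgeR, adjusted p = 0.552 and 0.625). The totals of Rnf168 overlapped between all groups, with 1580 and 1640 at day 0, 1670 and 1600 at day 14, and 1600 and 1690 after irradiation.

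For shieldin, the totals of Shld2 were 2280 and 2310 at day 0, 2210 and 2280 at day 14, and 2280 and 2200 after irradiation. Those of Mad2l2 were 2920 and 2720, then 2710 and 2730, then 2700 and 2720. Only day 0 replicate 1 of Mad2l2 stood apart from its other 5 libraries. The log2 changes of Shld2 were -0.03 ± 0.04 and -0.04 ± 0.04 (SE), and those of Mad2l2 -0.05 ± 0.05 and -0.06 ± 0.05 (SE). The lower single-knockout values of both genes therefore had no counterpart of the same size over all partners.

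H2afx totals were 663 and 594 at day 0, 529 and 599 at day 14, and 578 and 567 after irradiation. The day 14 replicates lay on either side of the lower day 0 library. The log2 changes were -0.16 ± 0.09 and -0.13 ± 0.09 (SE; edgeR, adjusted p = 0.552 and 0.625), at ranks 9 and 18 of 459 from the lowest. They were -0.07 and -0.05 without day 0 replicate 1, and at day 14 -0.07 without the incomplete library. Guides 1 and 2 alone gave 0.07 and 0.01, and guides 3 and 4 alone -0.26 and -0.20.

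Trp53bp1 totals were 1710 and 2120 at day 0, 1980 and 2120 at day 14, and 2160 and 2050 after irradiation. Day 0 replicate 1 was the lowest library, and the other 5 lay between 1980 and 2160. The log2 changes were 0.10 ± 0.11 and 0.14 ± 0.11 (SE; edgeR, adjusted p = 0.664 and 0.633). With day 0 replicate 1 as the only day 0 library they became 0.26 and 0.30 and were called (edgeR, adjusted p = 0.00865 and 0.00463), but so were 164 and 154 of all 459 genes. With day 0 replicate 2 as the only day 0 library they were -0.05 and -0.01, and 0 genes were called (16 and 12 at an unadjusted p under 0.05).

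Against day 14, irradiation left the totals of all 7 members within -0.03 and 0.04 on the log2 scale, the widest interval being that of Trp53bp1, -0.22 to 0.30. The sign of such small values depended on the scaling. Scaled by non-targeting pairs, which moved the median over all genes to -0.08, all 7 lay between -0.10 and -0.04. The same scaling moved the median at day 14 against day 0 to 0.08, with Shld2 at 0.04, Mad2l2 at 0.02, Rnf8 at 0.00 and H2afx at -0.09.

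**Figure D2:**
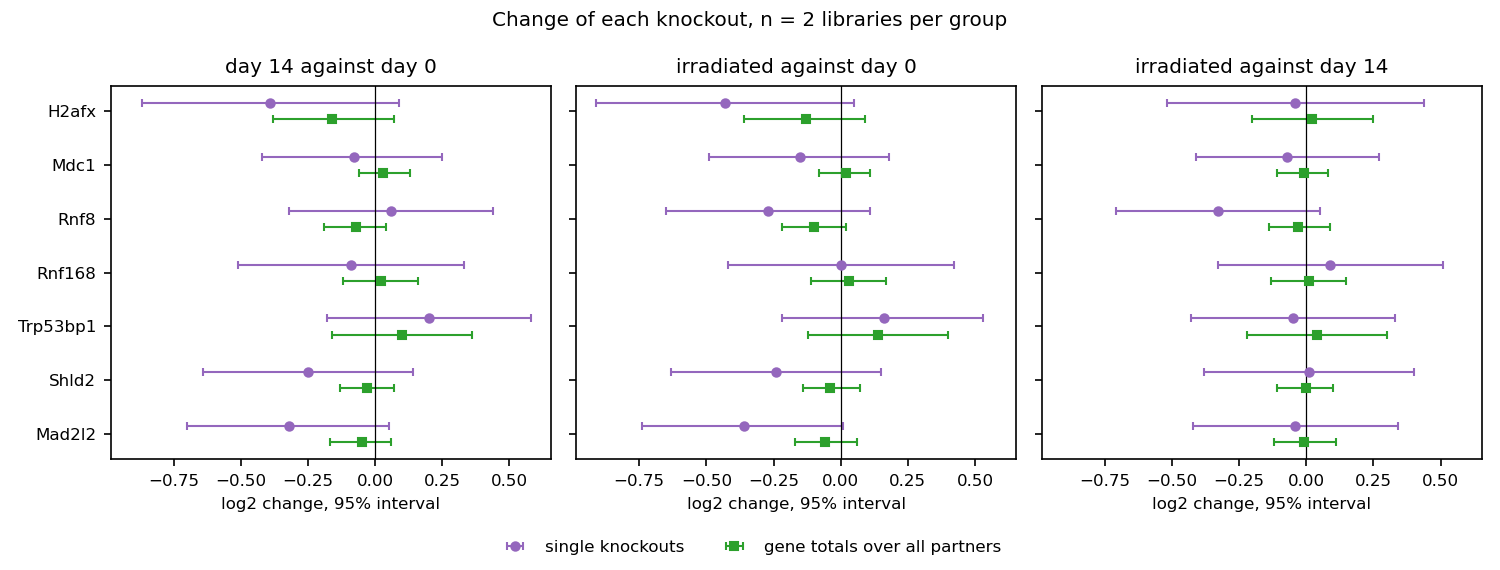
Points give the log2 change of each gene (y axis) in the 3 comparisons, with 95% intervals, for single knockouts (circles) and gene totals over all partners (squares), 2 libraries per group. Each interval includes 0, and those of the gene totals lie between -0.38 and 0.40.

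By guide, summed over all partners and scaled within each position, 0 of the 28 member guides were called in each comparison, as were 0 of 1849 guides (edgeR, 0%). At an unadjusted p under 0.05 there were 0 member guides, against 79, 57 and 83 of all guides (4.27%, 3.08% and 4.49%), and DESeq2 called 0 member guides and 24, 27 and 28 of all. Each of the 28 lay within the range of the non-targeting guides at its position in all 3 comparisons. At position 1 the 25 non-targeting guides ran from -0.18 to 0.16 at day 14 and the member guides from -0.17 to 0.07. At position 2 the 36 non-targeting guides ran from -0.41 to 0.41 and the member guides from -0.27 to 0.31. Over all guides the 5th and 95th percentiles at day 14 were -0.18 and 0.14 at position 1, and -0.22 and 0.40 at position 2. Most of all guides thus lay inside these ranges, and lying inside does not set the member guides apart. Guides whose groups did not overlap numbered 11, 13 and 6 of 28, against 40.9%, 36.5% and 30.9% of all guides.

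The 4 guides of H2afx went apart by position at day 14. Guide 2 had 287 and 288 CPM at day 0, 300 and 304 at day 14, and 281 and 316 after irradiation (log2 change at day 14 0.07 ± 0.09, SE), and guide 1 likewise was at 0.07 ± 0.11. Guide 4 had 596 and 502 at day 0, 404 and 504 at day 14, and 495 and 462 after irradiation (-0.27 ± 0.14, SE), and guide 3 was at -0.26 ± 0.12. The low day 14 value of guide 4 came from the incomplete library, and its other day 14 library equalled day 0 replicate 2 within 0.01 on the log2 scale. Without both incomplete libraries guides 3 and 4 were at -0.15 and -0.12.

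Rnf8 guide 1 had the smallest p of the member guides. It gave 625 and 602 CPM at day 0, 533 and 559 at day 14, and 601 and 575 after irradiation. The log2 change at day 14 was -0.17 ± 0.07 (SE; edgeR, adjusted p = 0.646), while Rnf8 guide 4 was at -0.02 ± 0.06. After irradiation the order turned, with guide 4 lowest at -0.13 ± 0.06 against day 0 and guide 2 highest at 0.05 ± 0.07.

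At day 14 the guides of Mdc1 had log2 changes from 0.01 to 0.06 and the guides of Shld2 from -0.06 to 0.01. For Mad2l2 the changes ran between -0.10 (guide 1) and 0.01 (guide 2). Rnf168 guide 4, the least abundant of its gene, had 204 and 212 CPM at day 0, 154 and 210 at day 14, and 208 and 170 after irradiation, with the lowest value of each later group in the incomplete library. Its log2 change at day 14 was -0.19 ± 0.19 (SE), and 0.01 without both incomplete libraries, while Rnf168 guide 2 was at 0.06 ± 0.09.

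**Figure D3:**
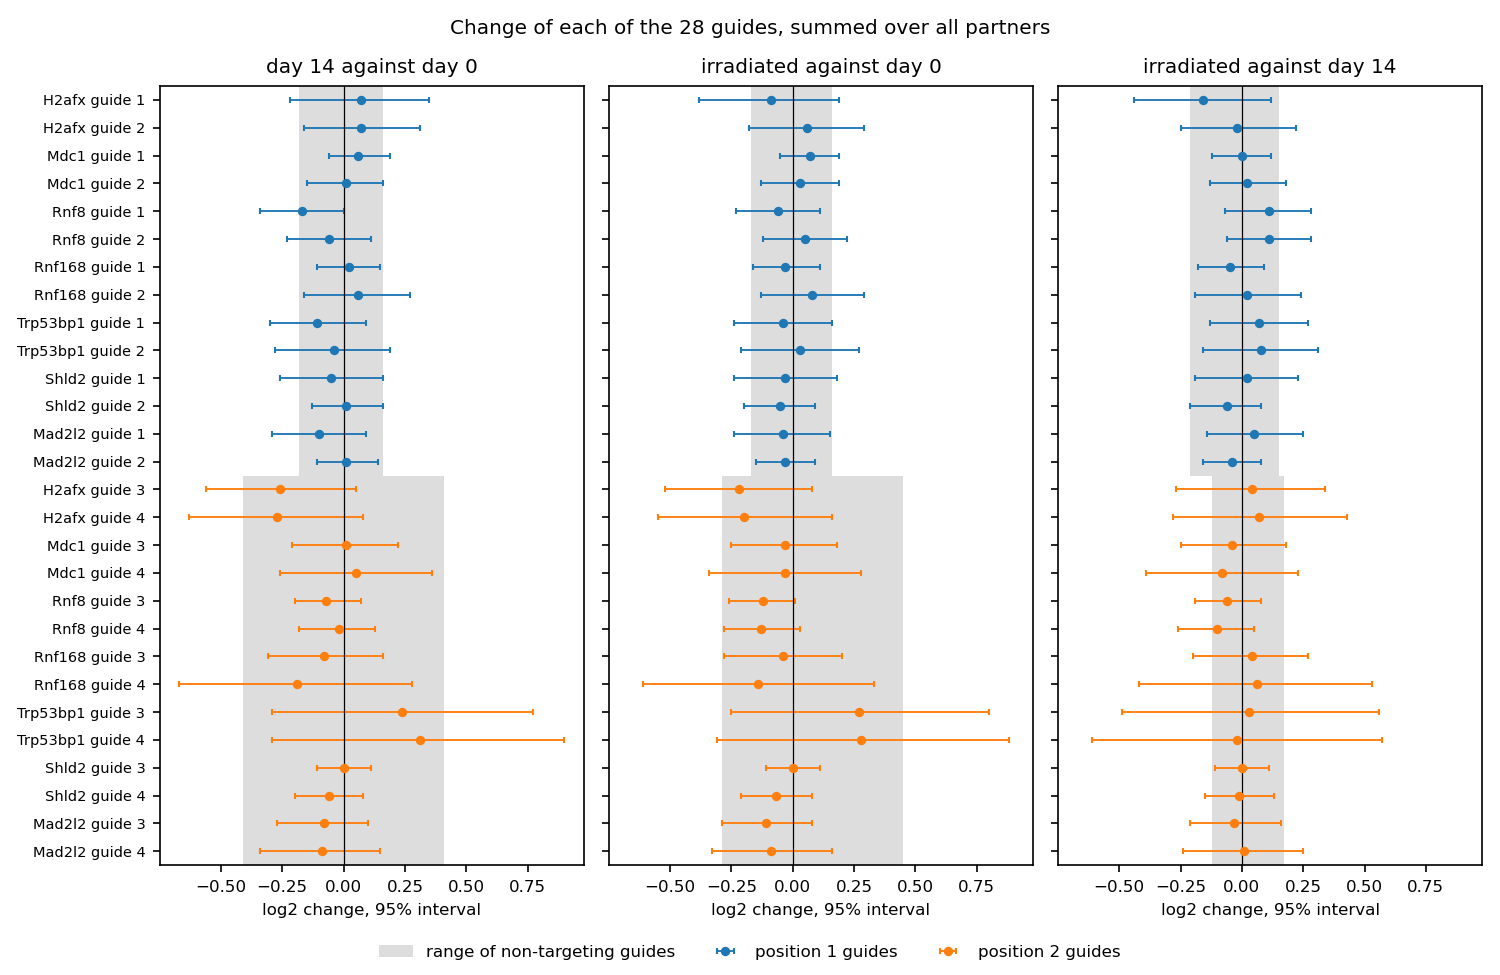
Points give the log2 change of each of the 28 guides (y axis) in the 3 comparisons with 95% intervals, guides 1 and 2 at position 1 (blue) and guides 3 and 4 at position 2 (orange), over the range of the 25 and 36 non-targeting guides of the same position (grey). Every point lies inside the grey range, which at day 14 also covers most of all guides. The widest intervals are those of Trp53bp1 guides 3 and 4.

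The position 2 guides of Trp53bp1 were low in 1 library. Guide 3 had 666 CPM in day 0 replicate 1 and 1050 in day 0 replicate 2, then 961 and 1070 at day 14 and 1050 and 1030 after irradiation. Guide 4 had 715 and 1190, then 1150 and 1210, then 1240 and 1090. For both guides, every library but day 0 replicate 1 lay within 0.13 log2 units of day 0 replicate 2. The position 1 guides of the same gene did not share this gap, since guide 1 had 1280 and 1240 at day 0 and guide 2 had 675 and 647.

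On the log2 scale, day 0 replicate 1 stood at -0.66 and -0.74 relative to replicate 2 for these guides, and between -0.05 and 0.28 for the other 12 member guides at position 2. A gap below -0.5 was found for 264 of all 927 position 2 guides (28.5%), for 11 of the 36 non-targeting guides there, and for 2 of 922 position 1 guides. The gap thus also occurred among guides with no target. The fitted changes of guides 3 and 4 were 0.24 ± 0.21 and 0.31 ± 0.24 (SE) at day 14, and -0.06 and -0.02 without day 0 replicate 1. Without day 0 replicate 2 they were 0.61 and 0.73 and were called (edgeR, adjusted p = 0.000355 and 0.000118), with 313 of all 1849 guides.

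**Figure D4:**
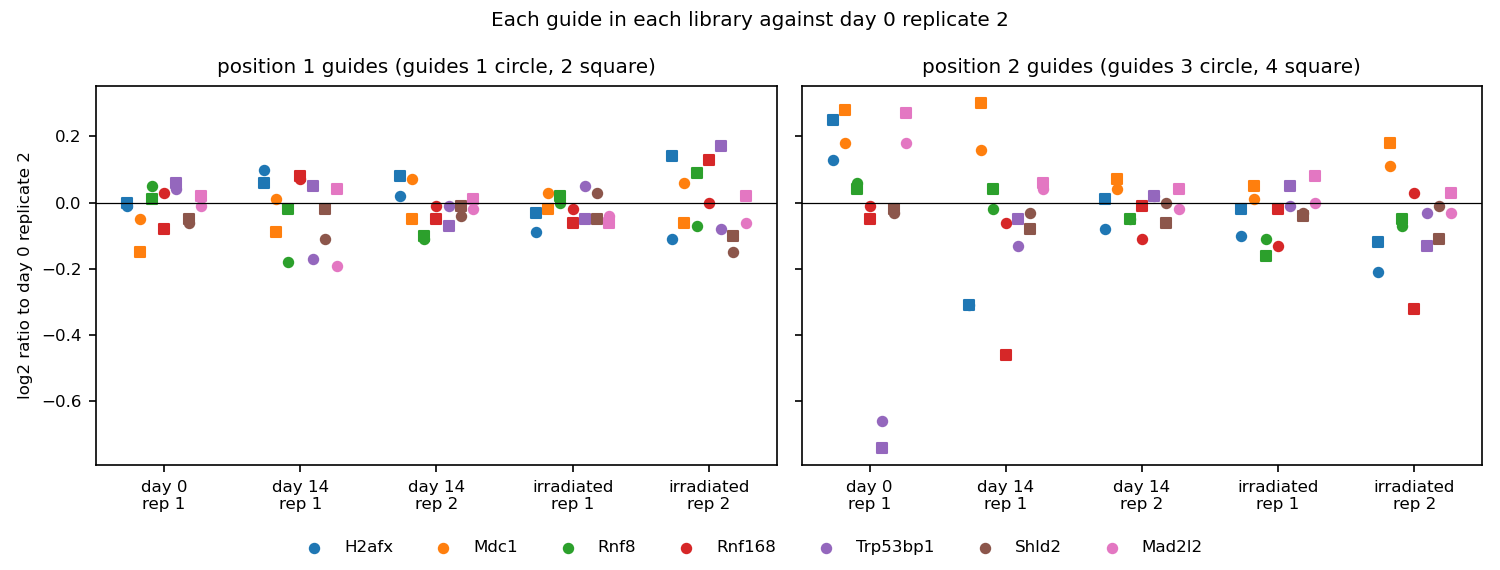
The y axis gives the log2 ratio of each guide in each of the 5 other libraries (x axis) to day 0 replicate 2, for position 1 guides (left; guide 1 circle, guide 2 square) and position 2 guides (right; guide 3 circle, guide 4 square), coloured by gene. In day 0 replicate 1 the 2 position 2 guides of Trp53bp1 lie at -0.66 and -0.74, and the other 12 between -0.05 and 0.28.

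Loss of 2 members at once was read as an interaction, the departure of the paired constructs, on the log2 scale, from what the partners of each gene predict additively. None of the 21 pairs inside the set was called (edgeR, 0 of 21 in each comparison, and 0 of 105111 pairs, or 0%). At an unadjusted p under 0.05 there were 0 of the 21, against 443, 372 and 874 of all pairs, fewer than the 5256 that a uniform p would give. DESeq2 called 0 of the 21 and 0, 5 and 2 of all pairs. The precision was low, since the median half-width of the 95% interval was 1.32 inside the set, and the narrowest, 0.68, was that of Mdc1 with Shld2. Without the incomplete libraries, with 1 library each at day 14 and after irradiation and the spread taken from day 0 alone, the median half-width was 0.52 against day 0. In that setting 0 of the 21 were called (edgeR), with 0, 2 and 0 at an unadjusted p under 0.05, which were Mdc1 with Rnf168 and Rnf8 with Mad2l2, while 6388, 13687 and 6975 of all 105111 pairs had such a p and 167, 1248 and 208 were called.

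The pair of shieldin subunits, Shld2 with Mad2l2, had the smallest p at day 14 (interaction 0.79, 95% interval -0.23 to 1.81; edgeR, adjusted p = 0.969). Its 8 constructs summed to 1252 and 1206 reads at day 0, 1658 and 934 at day 14, and 1190 and 1833 after irradiation, which is 14.8 and 13.9, 26.8 and 15.3, and 16.7 and 21.2 CPM. Its deviations from the additive expectation were 0.13 and 0.23 at day 0, 1.39 and 0.37 at day 14, and 0.53 and 1.13 after irradiation. The incomplete libraries were highest, and in those the sums came from 5 and 6 of the 8 constructs. After irradiation the interaction was 0.69 (edgeR, adjusted p = 1.0). Both were lower with the incomplete libraries left out, 0.19 (-0.20 to 0.59) and 0.36 (-0.04 to 0.75).

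H2afx with Mdc1, the histone and its reader, was at 1.24 at day 14 (95% interval -0.71 to 3.19; edgeR, adjusted p = 0.969). Its deviation was 1.90 in day 14 replicate 1, where 3 of 8 constructs had reads, and between -0.04 and 0.11 in the other libraries. Rnf8 with Trp53bp1 was at 0.73 at day 14 (edgeR, adjusted p = 0.969) and at -0.90 after irradiation relative to day 14 (adjusted p = 1.0), and its deviation of 1.34 in day 14 replicate 1 stood apart from -0.29 to 0.08 elsewhere. Relative to day 14, irradiation gave -1.20 for H2afx with Mdc1 and -1.57 for H2afx with Trp53bp1 (edgeR, adjusted p = 1.0 for both). Without the incomplete libraries, the values at day 14 were 0.02 for H2afx with Mdc1 and -0.23 for Rnf8 with Trp53bp1, and those after irradiation relative to day 14 were -0.05, -0.37 and, for Rnf8 with Trp53bp1, 0.20. Mdc1 with Rnf168 did not follow the incomplete libraries, although only 3 of its 8 constructs had reads in each of them. Its deviations were -0.04 and 0.20 at day 0, 0.47 and 0.24 at day 14, and 0.62 and 0.57 after irradiation, giving an interaction of 0.51 against day 0 (95% interval -0.26 to 1.28; edgeR, adjusted p = 1.0). It was 0.53 (0.12 to 0.95) with the incomplete libraries left out, and not called (edgeR, adjusted p = 0.221).

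The 2 ligases together, Rnf8 with Rnf168, stood at -0.55 and -0.56 against day 0, with intervals of -1.72 to 0.62 and -1.73 to 0.61, and at -0.34 and -0.24 without the incomplete libraries. Of the pairs named for their roles, Trp53bp1 with Shld2 stood at -0.07 and -0.23, or at 0.17 and 0.08 without the incomplete libraries. Trp53bp1 with Mad2l2 stood at 0.61 and 0.52, and had 10.3 and 11.5 CPM at day 0, 19.9 and 9.89 at day 14, and 10.2 and 19.3 after irradiation. Its high libraries were the incomplete ones, and without them the values were -0.19 and -0.17. Pairs with H2afx were the least measured. H2afx with Shld2, named after its values were seen, had 227 and 133 reads at day 0, 1 and 100 at day 14, and 70 and 0 after irradiation, and its interval at day 14 ran from -7.12 to 4.81.

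Constructs with both guides against 1 member were few and varied as widely. The 4 Mdc1 constructs had 13.3 and 11.5 CPM at day 0, 1.08 and 11.7 at day 14, and 13.1 and 4.34 after irradiation. The 4 Mad2l2 constructs had 7.35 and 6.82, then 18.4 and 7.85, then 4.94 and 8.08. For Mdc1 the incomplete libraries were the lowest, and for Mad2l2 they were the highest.

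**Figure D5:**
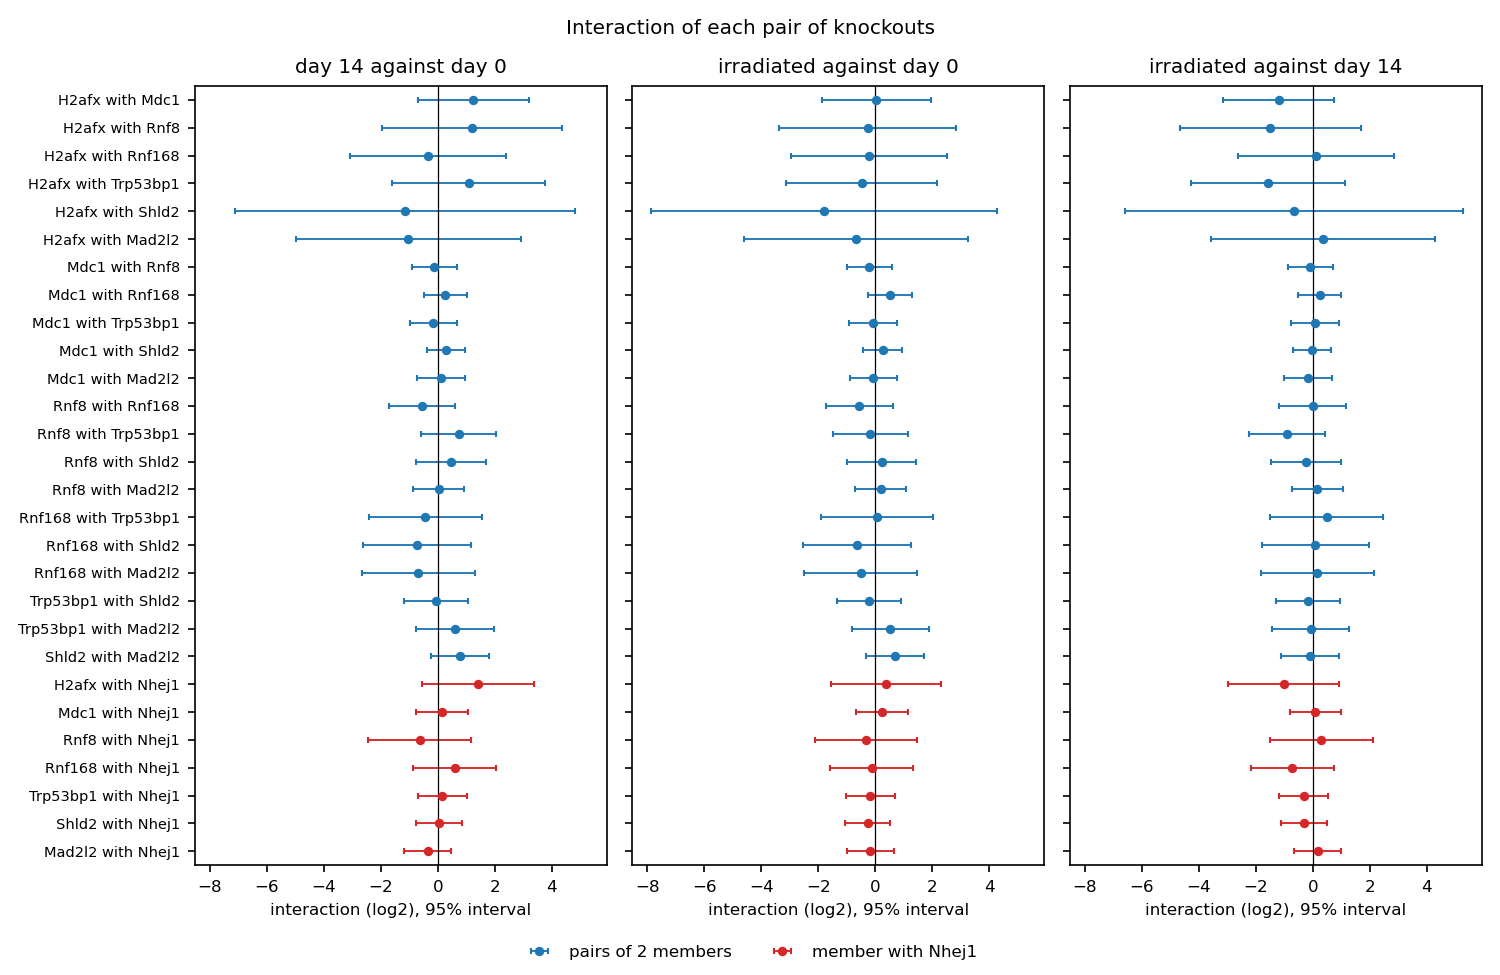
Points give the interaction on the log2 scale, with 95% intervals, for the 21 pairs of members (blue) and the 7 pairs of a member with Nhej1 (red) in the 3 comparisons. All intervals include 0, and those of pairs with H2afx are the widest, reaching -7.88 for H2afx with Shld2.

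With Nhej1, 0 of 7 pairs were called in each comparison (edgeR), with 0 at an unadjusted p under 0.05. DESeq2 called 0, with 1, 0 and 0 at an unadjusted p under 0.05, against 4455, 3366 and 5702 of all 105111 pairs. Nhej1 itself was at 22.5 and 22.2 reads per 100 non-targeting pair reads at day 0, 22.2 and 22.8 at day 14, and 24.6 and 21.4 after irradiation, with changes of 0.01 ± 0.16 and 0.04 ± 0.16 (SE). H2afx with Nhej1 had the highest value, 1.41 at day 14 (95% interval -0.56 to 3.38; edgeR, adjusted p = 0.969), with a deviation of 2.32 in day 14 replicate 1 against 0.06 to 0.77 elsewhere. Of its 7 constructs, 3 had reads in that library, and the interaction was 0.27 (-0.42 to 0.97) without the incomplete libraries. It was also the 1 pair that DESeq2 gave an unadjusted p under 0.05.

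The 3 Nhej1 pairs with 53BP1 and shieldin genes were measured more closely. Trp53bp1 with Nhej1 had 9.51 and 10.6 CPM at day 0, 11 and 10.6 at day 14, and 9.56 and 9.04 after irradiation, with interactions of 0.15 (-0.71 to 1.01) and -0.17 (-1.03 to 0.69) against day 0. Shld2 with Nhej1 was at 0.04 (-0.76 to 0.84) and -0.27 (-1.07 to 0.52). Mad2l2 with Nhej1 was at -0.35 (-1.18 to 0.48) and -0.18 (-1.01 to 0.64). For the ligases, Rnf8 with Nhej1 was at -0.64 and -0.34 and Rnf168 with Nhej1 at 0.59 and -0.13, each with 1 day 14 library far from the rest (-1.83 in Rnf8, 0.64 in Rnf168), the incomplete one. The signs at day 14 turned when these were left out, to 0.12 for Rnf8 and -0.29 for Rnf168. Mdc1 with Nhej1 was at 0.15 and 0.24, and at -0.32 and 0.05 without the incomplete libraries, in which its CPM was highest (22 and 20.1, against 12.3 to 17.8 elsewhere). In the same setting Trp53bp1 with Nhej1 was at -0.04 and -0.19, Shld2 with Nhej1 at 0.11 and -0.08, and Mad2l2 with Nhej1 at -0.36 and 0.07. Relative to day 14, irradiation gave -1.02 for H2afx, 0.09 for Mdc1, 0.30 for Rnf8, -0.73 for Rnf168, -0.32 for Trp53bp1, -0.31 for Shld2 and 0.17 for Mad2l2, none called (edgeR, adjusted p = 1.0 for each). With only complete libraries that of H2afx was 0.21, that of Rnf8 -0.13 and that of Rnf168 0.30.

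Over all partners, 3185 gene pairs held a member, and 0 were called in each comparison (edgeR). At an unadjusted p under 0.05 there were 23, 11 and 28 of them (0.722%, 0.345% and 0.879%), against 0.421%, 0.354% and 0.832% of all pairs. The smallest p at day 14 was that of Shld2 with Cyren, an inhibitor of end joining (1.21; edgeR, adjusted p = 0.969). For irradiated against day 0 it was that of Mad2l2 with Upf1, a factor of nonsense-mediated decay (1.09; adjusted p = 1.0), and relative to day 14 that of Rnf168 with Mcmdc2 (-2.40; adjusted p = 1.0).

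Since 53BP1 and shieldin oppose resection of broken ends, pairs of members with resection genes were read together. Of the 35 pairs with Brca1, Bard1, Rbbp8, Exo1 and Dna2, 0 were called (edgeR). At an unadjusted p under 0.05 there were 0, 0 and 1 (2.86%), against 0.421%, 0.354% and 0.832% of all pairs. Their median interaction was -0.06, 0.09 and -0.06, beside 0.01, 0.02 and 0.00 over all pairs. The 1 pair was Bard1 with Rnf168, at -2.34 after irradiation relative to day 14 (edgeR, adjusted p = 1.0). Of the 77 pairs with the other end-joining genes, 0 were called (edgeR), and the medians were -0.02, -0.05 and -0.12. At an unadjusted p under 0.05 there were 2 (2.6%), 0 and 0, against the same shares of all pairs. The difference in shares was not tested. One of the 2 was the pair of Shld2 with Cyren.

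Other genes of the pathway were taken from a list of 59 names, of which 33 were measured, and 0 were called as single knockouts or as gene totals (edgeR, every comparison). At an unadjusted p under 0.05 there were 1, 1 and 0 as single knockouts and 0, 1 and 1 as gene totals, against the shares of all genes given above, namely Ube2v1 at day 14 and Usp51 after irradiation as single knockouts, and Ube2v1 and Topbp1 as gene totals. As gene totals, the smallest p at day 14 belonged to the ubiquitin-conjugating enzyme variants Ube2v1 and Ube2v2, partners of the enzyme that builds K63-linked chains with RNF8, and to Topbp1, a checkpoint activator. Their log2 changes were 0.31 ± 0.13, 0.26 ± 0.11 and -0.07 ± 0.03 (SE; edgeR, adjusted p = 0.552 for each). After irradiation relative to day 0 it belonged to Ube2v1 at 0.32 ± 0.13, to Trip12, a ligase that limits RNF168, at 0.20 ± 0.09, and to Uimc1, which encodes RAP80, at 0.21 ± 0.10 (SE; adjusted p = 0.625 for each). Relative to day 14 it belonged to Topbp1 at 0.09 ± 0.03, Rad50 at 0.06 ± 0.04 and Nudt16l1, which encodes the 53BP1 inhibitor TIRR, at -0.11 ± 0.07 (SE; edgeR, adjusted p = 0.995 for each). In that comparison Ube2v1 was at 0.01 ± 0.13, Ube2v2 at -0.03 ± 0.11, Trip12 at 0.07 ± 0.09 and Uimc1 at 0.08 ± 0.10 (SE). Their higher values thus appeared only against day 0, where replicate 1 was low for 28.5% of position 2 guides. Their values without that library are not given here.

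The remaining shieldin subunits and RIF1, named here for their roles, also lay near 0 as gene totals. Shld1 was at -0.03 ± 0.05 and -0.02 ± 0.05 against day 0, Shld3 at -0.03 ± 0.06 and 0.02 ± 0.06, and Rif1 at -0.02 ± 0.05 in both comparisons (SE). The median of the pathway list was -0.02, -0.02 and 0.00 as gene totals, with 20, 21 and 16 of 33 genes below 0.

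The lists of resection and end-joining genes also gave 0 called genes (edgeR, every comparison). Of the resection genes 5 of 6 names were measured, with 0 at an unadjusted p under 0.05 and median gene totals of -0.11, 0.00 and 0.06. Those of smallest p at day 14 were the nuclease Dna2 at 0.20 ± 0.09, Brca1 at -0.14 ± 0.06 and its partner Bard1 at -0.11 ± 0.06 (SE; edgeR, adjusted p = 0.552 for each). Of the end-joining genes 12 of 13 names were measured, Nhej1 included, with medians of -0.02, -0.02 and 0.01. At an unadjusted p under 0.05 there were 2, 0 and 0 as single knockouts, Xrcc6 and Polm, and 0, 1 and 0 as gene totals. Xrcc6, which encodes KU70, was highest at day 14 as a gene total (0.24 ± 0.13, SE; edgeR, adjusted p = 0.552). After irradiation relative to day 14, Dna2 was at -0.03 ± 0.09 and Xrcc6 at 0.02 ± 0.13 (SE). Their values without day 0 replicate 1 are not given here.

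The gene most like each member in its total over the 6 libraries, by Pearson's r of log2 values, was Fh1 for H2afx (0.989), Ap5z1 for Mdc1 (0.987), Abraxas1 for Rnf8 (0.962), Eya4 for Rnf168 (0.960), Fam168a for Trp53bp1 (0.996), Rad54b for Shld2 (0.953) and Aplf for Mad2l2 (0.992). Each is the best of 458 genes over 6 points that share libraries and scaling, and no test was made. In the pairs of H2afx, Rnf8, Trp53bp1 and Mad2l2 the value farthest from the mean was that of day 0 replicate 1, where Trp53bp1 lay at -0.24 and Fam168a at -0.35 on the log2 scale.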

How the data were processed

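Each deposited table lists raw read counts for guide pairs, as whole numbers that the authors had not normalised, judged from the values. HISAT2 2.1.0 and the hg38 build appear in the submitters' processing notes, without saying how reads were assigned to guides. Pairs not listed in a library were set to 0, and 2 columns that match no sample were not used. Counts were summed per gene with non-targeting partners (scaled by non-targeting pairs), per gene and per guide over all partners (TMM, guides within position, mean of at least 2000), and per gene pair (offset from an additive median fit, prior count 2, 25 iterations). Other sums needed a mean of at least 20. edgeR 4.0.16 (R 4.3.3) fitted all 6 libraries at once, two-sided, with Benjamini-Hochberg adjustment over all features and a threshold of 0.05. The tests were also run on counts simulated at the median spread of each test. Larger changes were planted for pairs than for the other tests, so it does not show whether smaller interactions would be called. The simulation had no missing constructs, unlike the incomplete libraries. The median biological coefficient of variation was 0.14, 0.0501, 0.0773 and 0.45. Intervals are at the 95% level. DESeq2 1.42.0, limma 3.58.1, other scalings, filters, guide positions and left-out libraries were alternatives. The members and lists were chosen with earlier results of these data known. By the naming rule, all members and Nhej1 pairs are named, with the extreme guides and the 3 pairs and 3 list genes of smallest p. The values of 1 end-joining gene are not reported here.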

Additional observations from a re-analysis of the deposited data

How the results depend on the processing

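No member, member guide, pair inside the set or pair with Nhej1 was called under the alternatives run, with 1 exception. With each library left out in turn, the number of members called as gene totals ran from 0 to 1 at day 14 and after irradiation against day 0, and the number of member guides called from 0 to 2. These calls, Trp53bp1 and its guides 3 and 4, came without day 0 replicate 2. Nothing was called in the main fits, so there was no called value whose sign could change. The Trp53bp1 total at day 14 was 0.26 without day 0 replicate 2 and -0.05 without day 0 replicate 1. Of the values of single genes, guides and pairs under alternatives, 2620 stayed within the spread, 171 moved by more, and 6 passed the threshold.

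The labels do not say that replicate numbers pair the libraries. With the number as a replicate block, 0 members were called in each test, and over all features 0, 1 and 1 guides and 0, 1 and 1 pairs were called. Deviations of gene totals from the group means correlated at -0.106, 0.146 and -0.668 between same-numbered libraries of day 0 and day 14, day 0 and irradiated, and day 14 and irradiated. With day 14 and irradiated numbers crossed, an alternative added after seeing the data, 0 single knockouts, 51 gene totals, 36 guides and 2 pairs were called, with 0 members, member guides or member pairs among them. Fitting the guide positions apart, also added then, called 0 member guides.

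Counts over all features, 0 in each main comparison, differed more. With the day 14 comparison first, then irradiation relative to day 0 and to day 14, leaving out both incomplete libraries called 167, 1248 and 208 pairs and 1, 3 and 0 single knockouts. Leaving out day 14 replicate 2 called 21 single knockouts at day 14. Leaving out day 0 replicate 2 called 164, 154 and 1 gene totals and 313, 311 and 11 guides. Leaving out day 0 replicate 1 called 0, 0 and 1 gene totals and 3, 4 and 10 guides. Position 1 guides alone called 2, 2 and 10 gene totals.

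The pairs were measured least closely. With 2 libraries per group, the median 95% half-width was 0.378 for single knockouts of members, 0.116 for gene totals, 0.205 for guides and 1.32 for pairs inside the set, on the log2 scale. Over all pairs it was 1.34, also 1.34 with a mean count of at least 100, and 0.522, 0.520 and 0.604 without both incomplete libraries.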
